A study of Drosophila melanogaster with 15 samples.

Results

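This account covers pairs of genes on the same strand whose assembled mRNA isoforms overlap in their exons. Full-length cDNA of wild-type (w1118) *Drosophila melanogaster* had been read on Oxford Nanopore devices after 14 PCR cycles, and the reads of all libraries of a tissue had been pooled into 1 isoform assembly before deposit. There were 6 libraries of heads (adults aged 3 days), 6 of embryos (50 embryos per replicate, with 3 libraries from 14–16 h and another 3 from 18–20 h after eggs were laid) and 3 of ovaries (20 ovaries per replicate, virgin females aged 3 days). All but 2 head libraries had been size-selected for cDNA above 3 kb. The assemblies hold exon positions on dm6 and no read number, so neither the depth per library nor a spread between replicates could be computed, and no difference between tissues was tested. The study describes the head data as the deepest, and no count below was corrected for that. Intervals in parentheses are 95% Wilson intervals that cover the sampling of pairs, genes or isoforms only. The labelled tissues carried most of their marker genes: 6 of 6 head markers had isoforms in heads (4 in embryos, 0 in ovaries), 4 of 4 embryo markers had isoforms in embryos (also 4 in heads, and 1 in ovaries), and 4 of 6 ovary markers had them in ovaries (1 in heads, 0 in embryos), where *nos* and *vas* had none. The embryo markers thus did not separate embryos from heads.

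Pairs were chosen by the exon positions themselves: 2 different FlyBase gene IDs had to hold isoforms on the same strand of the same assembly with exons overlapping by 1 nt or more. This chose 986 pairs in any assembly, with 859 in heads, 124 in embryos and 178 in ovaries. They involve 1741 of the 11848 FlyBase gene IDs, with 1518 of 11280 in heads, 230 of 6525 in embryos and 347 of 6690 in ovaries. Because overlap chose the pairs, the counts of pairs and the split by shared introns are descriptions.

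Exons of neighbouring genes can overlap in several ways. In a dicistronic mRNA, 1 transcript carries 2 separate coding sequences, an arrangement known in *Drosophila* from loci such as *stnA* and *stnB*. In read-through, RNA polymerase passes the poly(A) site (PAS) of an upstream gene and the RNA is cleaved only after the gene that follows, and the primary transcript can be left unspliced between the genes or be spliced from one gene into the other. Annotated genes can also share a promoter or a first exon and differ downstream, and an assembly can give isoforms of 1 locus to different IDs.

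Sequences show 2 of these arrangements. The first set is the stretch between 2 coding sequences (CDSs) on a single isoform, where the spacer between the stop codon of the first and the start of the second was shortest. Capitals mark the stop codon of the first CDS and the first codon of the second, and all sequences are 5′ to 3′ from the RefSeq copy of dm6.
CG32152/CG5151, chr3L:16142114-16142216, minus strand, spliced, spacer 0 nt: ggcctgtaccttTAGATGctatcggtacag
Lasp/CG43954, chr3L:16678161-16678190, minus strand, spacer 6 nt: gcggttataTAAtagggaATGttctactac
CG34140/Mkp, chr3L:183255-183283, minus strand, spacer 7 nt: cggacattTAAtaccgctATGatactgct
pre-mod(mdg4)-L/pre-mod(mdg4)-P, chr3R:21358195-21358380, minus strand, spliced, spacer 14 nt: gctatTAGgatgtaggatgtccAAAttcga
Rpp14a/CG7950, chr3R:30057437-30057465, plus strand, spacer 15 nt: taacTAGcattaccgcatcaggATGtcat
CG42455/vnc, chr3L:9973249-9973278, plus strand, spacer 24 nt: TAGgaagcacatctacacagcctcaccATG
The second codon of the mod(mdg4) pair is not ATG. The mRNAs of mod(mdg4), a chromatin gene, are made by trans-splicing, and the annotation lists its alternative 3′ parts as genes of their own. The *CG42455*/*vnc* pair falls outside the rule for named pairs and was added after its values were seen, since it completes the spacers of 30 nt or less.

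The second set joins exons of genes that the annotation keeps apart. Lower case is the last 15 nt of the exon in the upstream gene and capitals are the first 15 nt of the exon in the downstream gene. These pairs were chosen after their values were seen, from those with 2 isoforms on 1 such intron, the most for any. The span given is that of the intron.
CG11155/Cadps, chr4:1127416-1247101, plus strand, heads: atgaagaagattatgACGCAGATAAAGCCC
CG32816/CG13375, chrX:290597-418476, minus strand, ovaries: aaattggtttattcgGTGAACACAGGAATA
CG4297/crq, chr2L:450879-471397, minus strand, heads: cgaaaaactgatgagATGCAACTAACTGCC
EMC2A/EMC2B, chr3R:16990839-16995121, minus strand, heads: atacgatacacaatgGGTGGCGTCGAGAAT
Each of these introns was held by 2 isoforms, and they span 119686, 127880, 20519 and 4283 nt in the order given.

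The annotation (Ensembl release 115, on the same genome build) sorted the pairs into classes. Tandem neighbours, whose annotated spans do not touch, made up 438 of the 859 pairs in heads (51.0%, 47.7 to 54.3), 34 of 124 in embryos (27.4%, 20.3 to 35.9) and 22 of 178 in ovaries (12.4%, 8.31 to 18.0). Genes whose annotated exons overlap, but not their CDSs, made up 147 pairs in heads, 45 in embryos and 54 in ovaries. In 32, 15 and 14 pairs the annotated CDSs overlap too, and in 40, 8 and 5 the genes interleave, with overlapping spans and separate exons. In 196 pairs of heads, 22 of embryos and 80 of ovaries, an ID was annotated on the strand opposite to the pair's. The remaining 6 pairs of heads and 3 of ovaries had an ID that release 115 does not hold. Of the pairs with both IDs annotated, the annotated exons were disjoint on the strand of the pair in 79.0% in heads (76.2 to 81.6), 51.6% in embryos (42.9 to 60.2) and 61.1% in ovaries (53.8 to 68.1). Every pair with an ID annotated on the other strand is disjoint here by definition. Such pairs were 196 of the 674 disjoint pairs in heads, 22 of 64 in embryos and 80 of 107 in ovaries. In 128, 17 and 59 of them the annotated exons overlap across strands. With multi-exon isoforms alone, which leaves this class out, the share was 41.2% in embryos and 27.8% in ovaries.

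**Figure D1:**
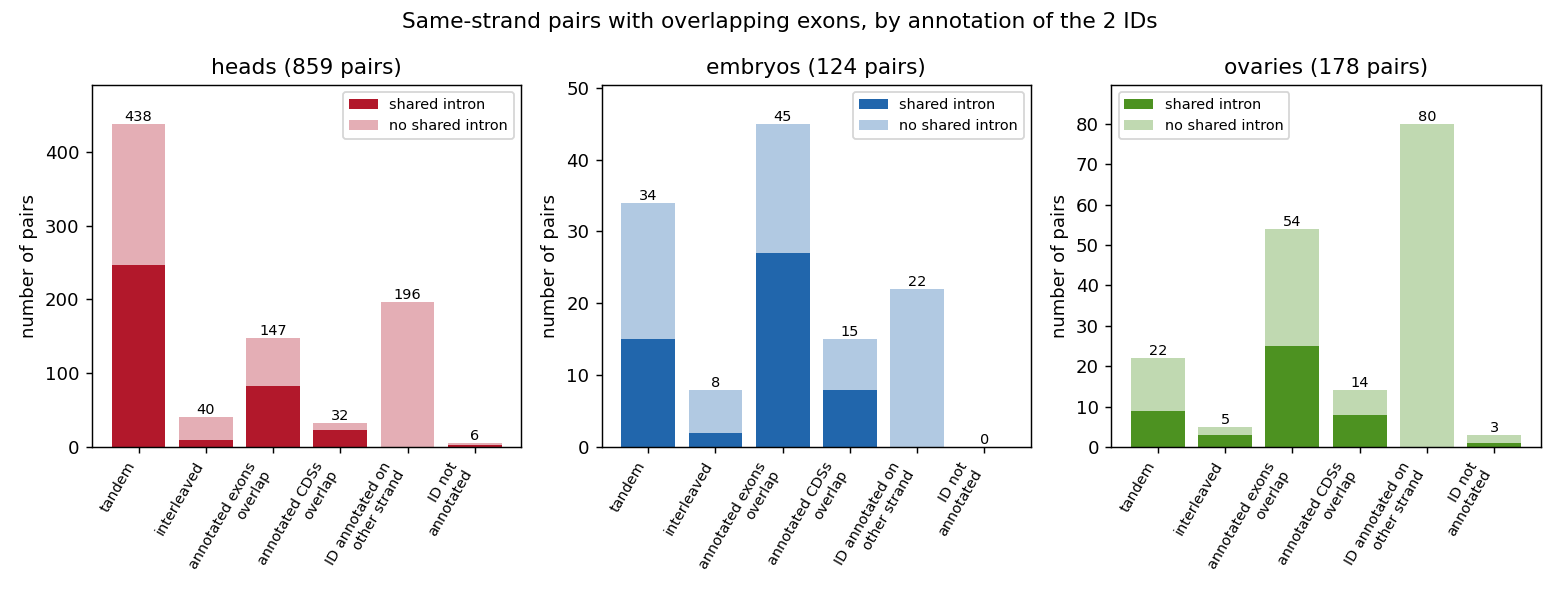
Number of pairs (vertical axis, own scale per panel) by annotation class in heads, embryos and ovaries, with pairs that share an identical intron in full colour and other pairs in pale colour. Tandem pairs are the largest class in heads (438 of 859), genes with overlapping annotated exons are the largest in embryos (45 of 124) and pairs with an ID annotated on the other strand are the largest in ovaries (80 of 178). Pairs of that last class could not share an intron, since an ID of each had single-exon isoforms only.

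An identical intron was shared by 365 pairs in heads (42.5%, 39.2 to 45.8), 52 in embryos (41.9%, 33.6 to 50.7) and 46 in ovaries (25.8%, 20.0 to 32.7). The pairs counted include the 196, 22 and 80 with an ID annotated on the other strand, which could not share an intron. Pairs that shared an intron overlapped over longer stretches, with medians of 1743, 2938 and 1333.5 nt in heads, embryos and ovaries, against 351.5, 335 and 132 nt in pairs that shared none. A shared intron requires overlap of the exons on both its sides, so longer overlap was favoured by definition. The pairs with an ID annotated on the other strand also fall among those that shared none. Within tandem pairs alone the medians were 1500 against 542 nt in heads, 2554 against 323 nt in embryos and 1021 against 266 nt in ovaries. The annotation gives 19.3% of the 935 shared introns of heads to both genes, as it does 60.8% of the 148 of embryos and 71.9% of the 96 of ovaries. A further 31.8% of those in heads are annotated in the upstream gene alone and 43.4% in the downstream gene alone. Most shared introns in heads were thus introns of a single annotated gene that also stood in an isoform filed under its partner.

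The edge of the rule needs a description of its own. In heads 4 pairs overlapped by exactly 1 nt, namely *HSPC300*/*EbpIII*, *Prosbeta5*/*CG12343*, *Ucp4C*/*Ucp4B* and *Ucp4C*/*asRNA:CR43465*. In embryos no pair did, and in ovaries 2 did (*CG11808*/*mRpL41* and *Vps25*/*beta3GalTII*). Just outside the rule, 305 (heads), 26 (embryos) and 104 (ovaries) pairs lay exactly 0 nt apart, so that an exon of 1 gene began on the base after an exon of the other. Counting up to 9 nt apart raised these numbers only to 317, 27 and 110. In all of the abutting pairs both exon edges were ends of isoforms, and the contact lay within 1 nt of an annotated end of either gene in 93.4%, 96.2% and 94.2% of them (heads, embryos, ovaries).

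The locus of *CG2656* and the centriole assembly gene *Sas-4* is an example of such contact, picked after its values were seen. *Sas-4* is annotated 96 nt downstream of *CG2656* on 3R, yet in heads and ovaries its exons began at the base after position 7151270, where *CG2656* ends in the annotation. Ends of isoforms in these assemblies thus often coincided with the annotated border of a neighbour, and a pair can lie inside or outside the rule by 1 nt. Whether a step of the assembly placed them there was not tested.

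Tandem neighbours overlapped in the assemblies although the annotation keeps them apart. Among all annotated same-strand neighbours of protein-coding genes with isoforms of both IDs, 345 of 7894 overlapped in heads (4.37%), 30 of 3123 in embryos (0.961%) and 17 of 3606 in ovaries (0.471%). The other tandem pairs (93 in heads, 4 in embryos and 5 in ovaries) had another gene between them or a non-coding partner. When only the 1686 neighbours with isoforms in all 3 assemblies were counted, 62 overlapped in heads (3.68%, 2.88 to 4.69), 12 in embryos (0.712%, 0.408 to 1.24) and 7 in ovaries (0.415%, 0.201 to 0.855). The part of reading depth in this order was not tested. The median number of isoforms of both genes was 7 in overlapping and 7 in other neighbours of heads, 3 and 3 in embryos, and 3 and 3 in ovaries.

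Close neighbours overlapped more often. In heads 27.0% (21.5 to 33.4) of the 211 neighbours annotated at most 100 nt apart overlapped, against 13.9% at 101 to 250 nt, 9.79% at 251 to 500 nt, 7.85% at 501 to 1000 nt, 3.24% at 1001 to 2000 nt, 1.85% at 2001 to 5000 nt and 0.382% (0.218 to 0.666) of 3145 above. Embryos ran from 11.4% (4.54 to 26.0) of 35 at the shortest distance to 0.165% (0.0453 to 0.600) of 1211 at the longest, and ovaries from 7.60% (3.53 to 15.6) of 79 to 0.181% (0.0496 to 0.656) of 1107. The median distance was 306 nt between overlapping neighbours of heads, against 3368 nt between others, 298.5 against 3164 nt in embryos and 200 against 2398 nt in ovaries. On the X chromosome 34 of 1244 neighbours of heads overlapped (2.73%, 1.96 to 3.80), against 4.28% to 5.11% on the other large arms. The median distance between neighbours of heads was 3642.5 nt on the X and 2665 to 3342 nt on those arms.

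**Figure D2:**
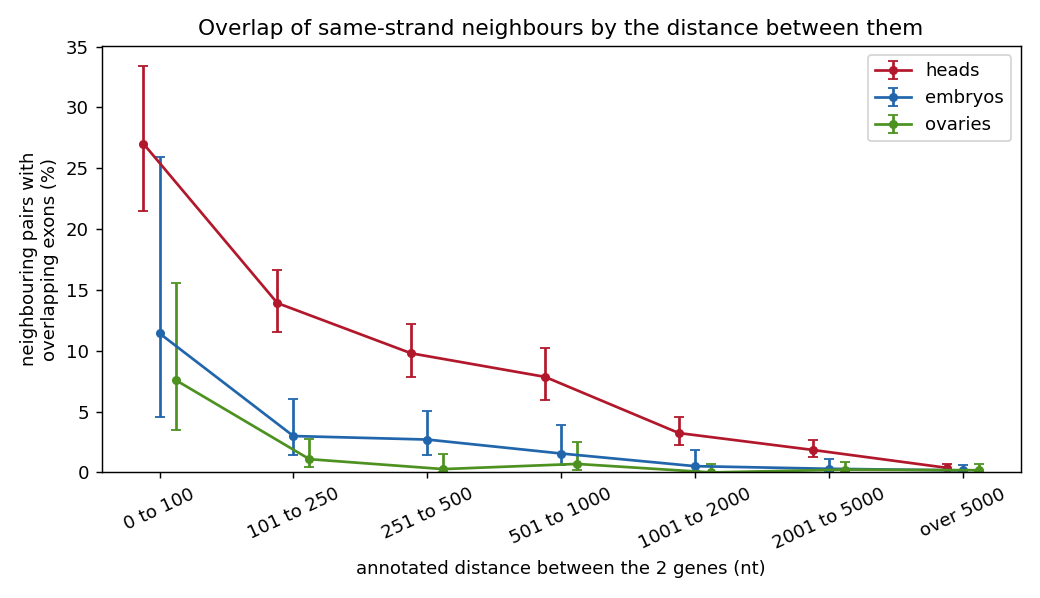
Share of same-strand protein-coding neighbours whose assembled exons overlap (vertical axis, percent, with 95% Wilson intervals) by the annotated distance between the genes (horizontal axis, nt) in heads, embryos and ovaries. In heads the share falls at each step of distance and is 27.0% at 100 nt or less and 0.382% above 5000 nt. The embryo and ovary points are below the head points at each distance.

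Read-through isoforms were defined as isoforms with at least 50 nt in annotated exons of each gene of a tandem pair. Counted once per pair, they numbered 701 in 408 pairs of heads, 33 in 29 pairs of embryos and 22 in 20 pairs of ovaries. They were a small part of each assembly, whose full size was 74482 (heads), 20701 (embryos) and 13398 isoforms (ovaries). The counts were not adjusted for these sizes. An isoform that met the definition in more than 1 pair was counted in each, also in the shares below. Most pairs rested on few read-through isoforms: 263 of the 408 pairs of heads, 25 of 29 in embryos and 18 of 20 in ovaries had 1. They made up a median of 20.0% of a pair's isoforms in heads and 33.3% in each of the other tissues. A further 79 isoforms in heads reached both genes by less than 50 nt, 57 of them by 1 nt, and 51 of these ended on the first annotated base of the downstream gene. In embryos 5 isoforms reached both genes by less than 50 nt, and in ovaries 1 did. Of these, 2 and 1 did so by 1 nt and ended on the first annotated base of the downstream gene.

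In heads 85.9% of the read-through isoforms ran across the space between the genes as a contiguous exon and 12.8% spliced from an exon of the upstream gene to one of the downstream gene. In embryos these shares were 93.9% and 3.03% of 33 isoforms, and in ovaries 40.9% and 59.1% of 22. Read-through isoforms had their TSS at most 50 nt from an annotated one of the upstream gene in 95.7% of cases in heads, 100% in embryos and 95.5% in ovaries. Reads whose start was absent from a promoter database had been dropped by the study, so starts at known sites were favoured in advance. No such share was computed for other isoforms of the same genes, so these values do not set read-through isoforms apart. Read-through isoforms ended within 150 nt of an annotated 3′ end of the downstream gene in 69.3%, 39.4% and 77.3% of cases. Their median length was 3871 nt in heads, against 3497 nt in other isoforms of the same genes. It was 4415 against 4103 nt in embryos and 3211 against 1980.5 nt in ovaries. Holding exon sequence of both genes is part of their definition, so a greater length was favoured in advance. Most libraries had also been selected for long cDNA, whose part in this was not tested. The ID of the upstream gene was carried by 61.5%, 75.8% and 31.8% of the read-through isoforms. Of the 403 tandem pairs of coding genes with read-through in heads, 220 had an isoform that held the longest annotated CDS of each gene whole (54.6%), as had 9 of 29 in embryos and 7 of 20 in ovaries. In 39, 8 and 1 of these pairs no read-through isoform reached the CDS of the downstream gene.

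The tandem pair of *Coq4*, a gene of coenzyme Q synthesis, and *Gorab*, which encodes a Golgi and centriole protein, had 9 read-through isoforms in heads, as many as any tandem pair. The genes lie 99 nt apart on 3L. All 9 isoforms held at least 50% of the CDS of each gene, the exons of the 2 IDs overlapped over 5671 nt, and 4 introns were shared. *Coq4* had 9 isoforms in heads, none in embryos and 1 in ovaries, and *Gorab* 2, none and 2, and the pair was found in heads alone. *Coq4* is itself annotated as dicistronic with *frc*, and both genes have their annotated 3′ end at position 17428936. *Gorab* thus lies 99 nt from *frc* as well, and this locus holds more than a simple pair of adjacent genes.

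*trp*, which encodes the light-activated cation channel of photoreceptors, and *Capa*, a neuropeptide precursor gene 174 nt downstream on 3R, also shared 9 read-through isoforms in heads. *trp* had 70 isoforms there and *Capa* 1, and neither had any in embryos or ovaries. *Arf1*, a GTPase gene of vesicle traffic, had 25 isoforms in heads, and *EMC4*, for a subunit of the ER membrane complex 136 nt downstream, had 2. They shared 8 read-through isoforms in heads, while *Arf1* had 4 isoforms in embryos and 7 in ovaries and *EMC4* 0 and 1, with no overlap. *Tsen54*, a tRNA splicing endonuclease gene, and *Ak1*, an adenylate kinase gene 40 nt away, had 7 such isoforms and 7 shared introns in heads, where *Tsen54* had 4 isoforms and *Ak1* 6. In embryos and ovaries *Tsen54* had 1 and 2 isoforms and *Ak1* none. These 4 pairs overlapped in heads only, and none of their downstream genes had an isoform in embryos. They were picked after the values were seen, from the tandem pairs with most read-through isoforms, which also include *CG2736* and *Phk-3* with 8 and *flap* and *CG44163* with 7.

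The last 30 nt before the annotated 3′ end of the upstream gene are shown for these 4 pairs, since read-through passes this end. For *Coq4* the same position is also the annotated 3′ end of *frc*. Capitals mark AATAAA, the most common poly(A) signal hexamer.
Coq4/Gorab, chr3L:17428936-17428965, minus strand: atgcagtttgccgaaataatttaaagatcg
trp/Capa, chr3R:29914521-29914550, minus strand: tttgtgtgaatAATAAAaaaaaagaatctc
Arf1/EMC4, chr3L:22868380-22868409, minus strand: gtaatttgaAATAAAatttaaatattaatg
Tsen54/Ak1, chr3L:12204123-12204152, minus strand: ggatcataagaatcaaatttgaatttgatc
The letters AATAAA stand in 2 of the 4 windows.

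AATAAA was then searched on the transcribed strand in the last 50 nt before the annotated 3′ end of all upstream neighbours. It was present in 54.0% (53.2 to 54.8) of all 13945 protein-coding genes. In heads it was found in 110 of 225 upstream genes of overlapping neighbours at most 500 nt apart (48.9%, 42.4 to 55.4), against 888 of 1405 of other neighbours at that distance (63.2%, 60.7 to 65.7). At longer distances it was found in 46.7% (38.0 to 55.6) of 120, against 55.0% (53.8 to 56.3) of 6144. In embryos the shares at most 500 nt apart were 12 of 20 (60%, 38.7 to 78.1), against 65.1% of 582, and in ovaries 6 of 11 (54.5%, 28.0 to 78.7), against 63.8% of 799, with intervals that overlap. The median AT content of the windows at most 500 nt apart in heads was 72% before overlapping and 74% before other downstream neighbours. A match is a run of letters and not a mapped PAS.

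**Figure D3:**
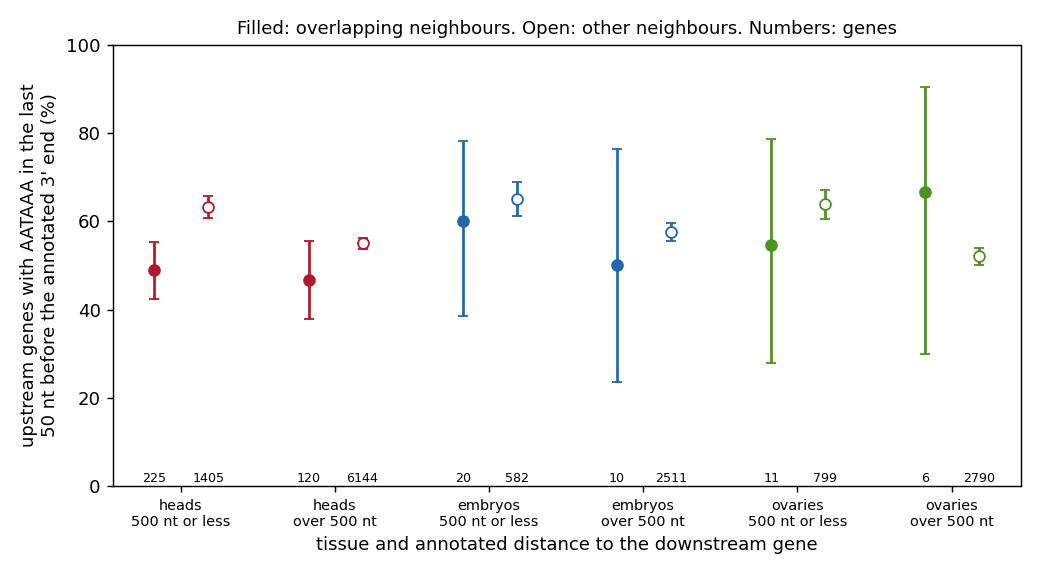
Share of upstream genes with AATAAA in the last 50 nt before their annotated 3′ end (vertical axis, percent, with 95% Wilson intervals) for overlapping neighbours (filled) and other neighbours (open), by tissue and annotated distance. Only the head points at 500 nt or less have intervals apart from each other, at 48.9% and 63.2%, and the numbers along the axis are the genes per point.

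The pair of *Sfxn1-3*, which encodes a mitochondrial sideroflexin, and *Cont*, for the septate junction protein Contactin, lies 95 nt apart on 3R (*Sfxn1-3* at 4378600 to 4381210 and *Cont* at 4381306 to 4387018) and shows both edges and read-through in 1 locus. In heads 2 of the 13 *Sfxn1-3* isoforms continued through all of *Cont*, at 6505 and 6668 nt, and the other 11 ended on the first annotated base of *Cont*. In embryos the only *Sfxn1-3* isoform was a read-through of 6505 nt. In ovaries both *Sfxn1-3* isoforms ended at the annotated end of the gene, and there was no overlap. The 3 *Cont* isoforms of heads, the 2 of embryos and the 3 of ovaries all began on the base after the annotated end of *Sfxn1-3*. The pair overlapped over 4837 nt with 6 shared introns in heads and in embryos. It was chosen for drawing after its values were seen.

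**Figure D4:**
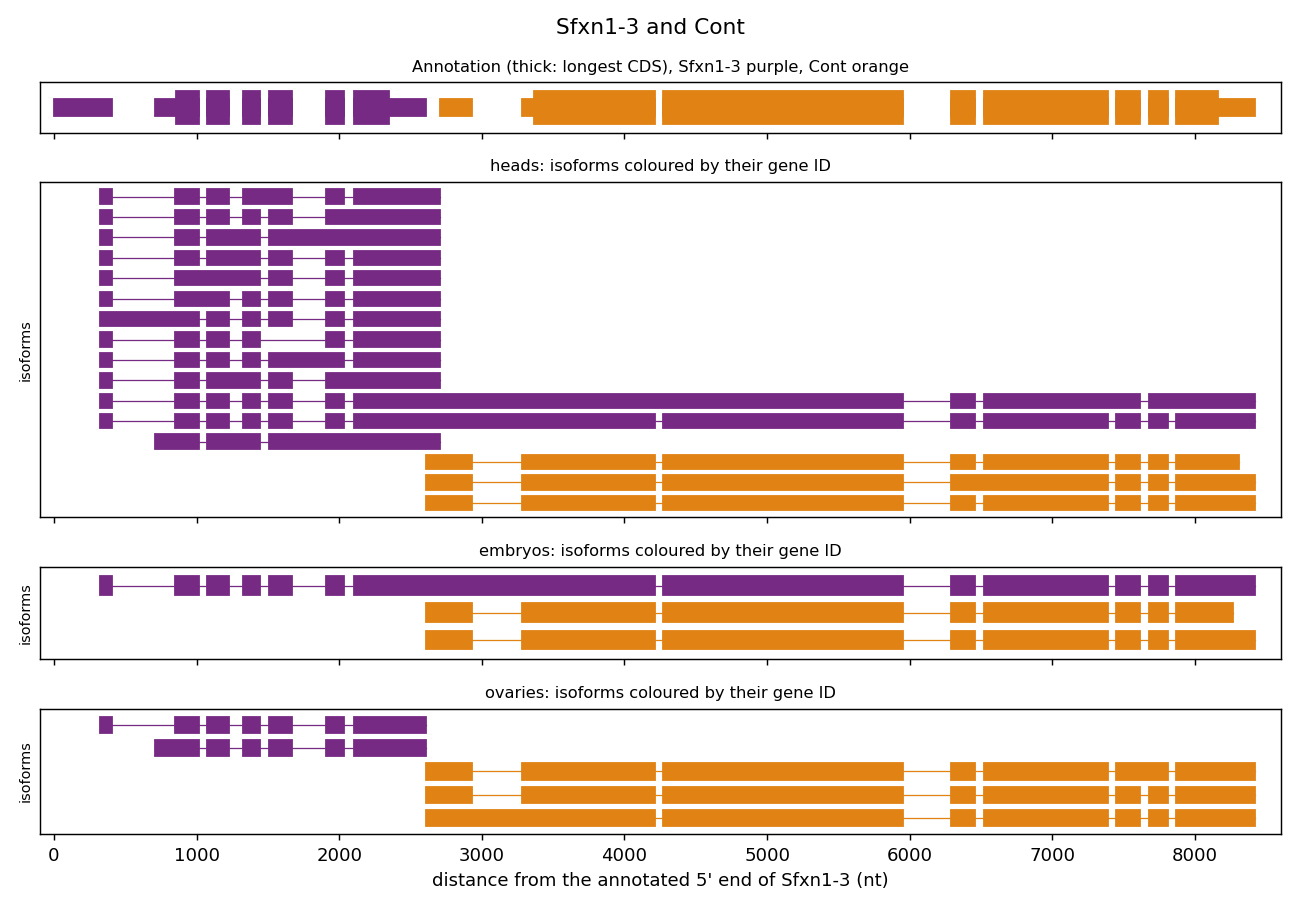
Exons of the annotation and of each isoform of *Sfxn1-3* (purple) and *Cont* (orange) in heads, embryos and ovaries, one isoform per row, by distance in nt from the annotated 5′ end of *Sfxn1-3*. The 2 read-through isoforms of heads and the 1 of embryos extend to 8418 nt, no *Sfxn1-3* isoform of ovaries passes 2610 nt, and all *Cont* isoforms begin at 2611 nt.

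Among tandem pairs, *RpS29*, a ribosomal protein gene, and *CG12947* were found in all 3 assemblies, as were *Glg1* and the nuclear receptor gene *Hr78*. *RpS29* and *CG12947* lie 535 nt apart on 3R and overlapped over 3236 nt in heads and embryos and 2007 nt in ovaries. They had 3, 2 and 2 read-through isoforms, with 4 shared introns in heads, 4 in embryos and 2 in ovaries. *Glg1* and *Hr78*, 54 nt apart on 3L, overlapped over 2727 nt in heads with 4 shared introns, and over 204 nt with none in embryos and in ovaries. In embryos a tandem pair among those with most shared introns was that of *GluRIIA* and *GluRIIB*, glutamate receptor subunit genes of the neuromuscular junction that lie 347 nt apart on 2L. They shared 9 introns and had 1 read-through isoform, filed under *GluRIIB*, which had 2 isoforms, while *GluRIIA* had 1. In heads *GluRIIA* had 4 isoforms and *GluRIIB* 1, with no overlap, and in ovaries neither had any.

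Introns that joined tandem genes were few, and long in part by definition. Heads had 79, embryos 1 and ovaries 12, and all of them had GT-AG ends, as did 98.9% of all introns of heads. Their median length was 15743 nt in heads, against 127 nt for all introns of that assembly, and 11122.5 nt in ovaries, against 77 nt, and the intron of embryos spans 21676 nt. In heads 53 of the 79 exceeded 10000 nt. A joining intron spans at least the annotated distance between its genes, so these lengths are set in part by its definition. In heads 70 of the 79 stood in a single isoform of that assembly, as did 11 of 12 in ovaries. Joining introns of *CG9231*/*Shal*, *CG6621*/*Ak3* and *EMC2A*/*EMC2B* were found with the same ends in heads and in ovaries. A direct repeat of 8 nt or more across the junction was found in 1 of the 79 of heads (1.27%, 0.224 to 6.83), against 0.158% (0.127 to 0.195) of all introns, and in none in embryos or ovaries.

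Of 81 combinations of such an intron and a pair in heads, 32 joined CDS to CDS, of which 18 kept the reading frame and 14 shifted it. A further 19 joined the CDS of the upstream gene to the 5′ UTR of the downstream gene, 17 joined 5′ UTR to CDS and 9 joined both 5′ UTRs. In ovaries 6 of 12 joined CDS to CDS, and 5 of them kept the frame. *AGO3*, which encodes an Argonaute protein of the piRNA pathway, accounted for 2 of these in ovaries, joined to *Spf30* across 25382 nt and to *CG17698* across 48319 nt of annotated distance on 3L. *AGO3* had 5 isoforms in ovaries, 1 in embryos and none in heads. *EMC2A* and *EMC2B*, paralogs for another subunit of the ER membrane complex, were joined in 4 isoforms of heads and 1 of ovaries. Every intron that joined these paralogs linked CDS to CDS and is counted above among those that kept the frame.

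Pairs whose annotated exons overlap lead the list by isoforms that span both CDSs. An isoform was called bridging when it held at least 50% of the longest annotated CDS of both genes of a pair with separate CDSs. Bridging isoforms were found in 374 of 605 such pairs in heads (61.8%, 57.9 to 65.6), 34 of 82 in embryos (41.5%, 31.4 to 52.3) and 26 of 72 in ovaries (36.1%, 26.0 to 47.7). Tandem neighbours supplied 266, 15 and 9 of these bridged pairs. Overlap had chosen the pairs, so the shares of bridged pairs were favoured in advance. In heads 408 of the 438 tandem pairs held a read-through isoform. Among all protein-coding neighbours at most 100 nt apart, 37 of 211 overlapped with a bridging isoform in heads. In embryos 2 of 35 did, and in ovaries 3 of 79. Above 5000 nt the numbers were 1 of 3145, 1 of 1211 and 1 of 1107 (heads, embryos, ovaries). The median spacer between the CDSs was 695, 798 and 375 nt in the same order, and it exceeded 500 nt in 219 of 328 pairs, 23 of 27 and 8 of 21.

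**Figure D5:**
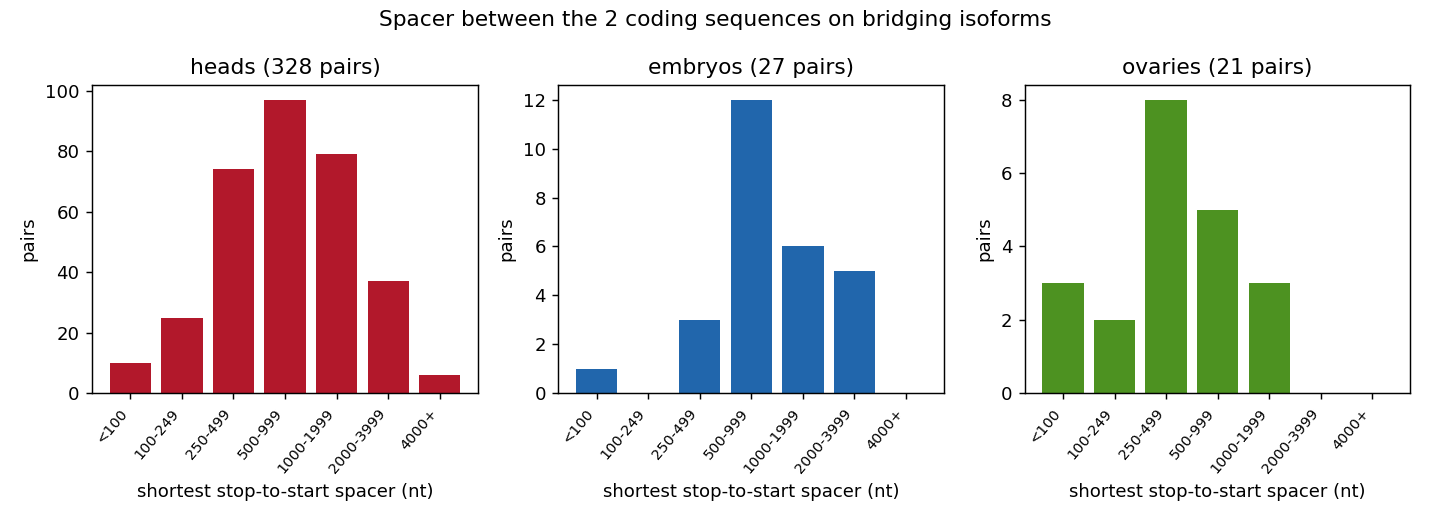
Number of bridged pairs (vertical axis, own scale per panel) by the shortest spacer between the stop codon of the first CDS and the start of the second (horizontal axis, nt) in heads, embryos and ovaries. The medians are 695, 798 and 375 nt, and 10 pairs in heads, 1 in embryos and 3 in ovaries have 100 nt or less.

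*Galphaq*, the G protein alpha subunit gene of phototransduction, and *CG45086* had the most bridging isoforms, with 99 over the 3 assemblies. The pair lies on 2R (12612740 to 12623197) and is annotated as dicistronic, meaning that an annotated transcript of each ID has the same introns and a separate CDS. In heads the IDs had 70 and 47 isoforms, in embryos 9 and 14, and in ovaries 7 and 5. Bridging isoforms numbered 74, 18 and 7, and 10 introns were shared in each assembly. Isoforms of the locus were split between the IDs in every tissue.

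Other pairs of this kind were *sky*, for a Rab GTPase activator at synapses, with *CG43739* (2L), and *Lasp*, for an actin-binding protein, with *CG43954* (3L). In heads *sky* and *CG43739* had 38 and 13 isoforms, in embryos 18 and 0, and in ovaries 3 and 3. The pair shared 10 introns in heads and 9 in ovaries, with 37 and 6 bridging isoforms, and did not exist in embryos, where *CG43739* had no isoform. *Lasp* had 6, 2 and 2 isoforms and *CG43954* 7, 5 and 3, with 5 shared introns in each assembly and 10, 6 and 3 bridging isoforms. Their CDSs are 6 nt apart, as the printed sequence shows. *CG42613* and *CG43732* on 3R shared 17 introns in heads, more than any other pair there, with 27 bridging isoforms. *CG42613* had 3 isoforms in embryos and none in ovaries, and *CG43732* had none in either.

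*Nca*, for the calcium-binding protein neurocalcin, and *CG7646* had 25 bridging isoforms in heads and none in ovaries, where each had 1 isoform. *COX6B*, for a cytochrome c oxidase subunit, and *CG18809* on the X had 10, 2 and 2 bridging isoforms with no shared intron and an overlap of 820, 820 and 786 nt. The alternative 3′ parts of mod(mdg4) supplied 4 of the 10 pairs with most bridging isoforms, with 17 to 22 summed over the assemblies. IDs of this locus also formed most of the largest connected group of heads, which held 11 IDs. In heads 638 of 713 connected groups held only 2 IDs.

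At loci annotated as dicistronic, the deposited IDs were uneven. Release 115 holds 228 pairs of genes with transcripts of the same introns and separate CDSs. Both IDs had isoforms in 34 of them in heads, 14 in embryos and 12 in ovaries, and of these 29, 14 and 11 overlapped. In 170 in heads, 106 in embryos and 115 in ovaries only 1 of the IDs had isoforms. An isoform of that ID nonetheless held at least 50% of both CDSs in 148 (87.1%), 83 (78.3%) and 82 (71.3%) of these. A locus whose isoforms all carry a single ID cannot form a pair under the rule.

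Loci known from earlier work to be dicistronic or to share exons gave both outcomes. *stnA* and *stnB*, whose proteins act in synaptic vesicle recycling, have the same annotated span on the X. All isoforms were filed under *stnA*, 42 in heads and 11 in embryos, and 41 and 11 of them were bridging with a spacer of 52 nt, while neither ID had an isoform in ovaries. The pair thus did not meet the rule. Likewise the 22 isoforms at the locus of *BicC*, which encodes an RNA-binding protein of oogenesis, were filed under *CG45084* in ovaries, where 21 were bridging, and the 2 of heads under *BicC*, where 1 was.

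*Adh*, for alcohol dehydrogenase, had 1 isoform in heads, 1 in embryos and 0 in ovaries, and *Adhr* had 11, 0 and 1. They formed a pair in heads with 2 shared introns, an overlap of 1230 nt, 3 bridging isoforms and a spacer of 303 nt. *ChAT* and *VAChT*, for the synthesis of acetylcholine and its loading into vesicles, overlapped over 605 nt in heads and in embryos with no shared intron and no bridging isoform, and had no isoform in ovaries. *ChAT* had 28 isoforms in heads and 4 in embryos, and *VAChT* 3 and 2. *eIF2gamma*, a translation initiation factor gene, and *Su(var)3-9*, for a histone methyltransferase, overlapped over 2385 nt with 1 shared intron in heads and in ovaries, where *Su(var)3-9* had 1 isoform each. In embryos *Su(var)3-9* had none.

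*vas* and *moi* had no isoform in any assembly, so no pair with *solo*, *vig* or *Tgs1* could form. *Ada2b* and *Polr2D* (*Rpb4*) lie far apart on 3R and formed none. *Ada2a*, for a histone acetyltransferase adaptor, shares exons with *Polr2D* and was looked up after this was seen. It overlapped over 721 nt in heads and 609 nt in ovaries with 1 shared intron each.

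Only 24 pairs were found in all 3 assemblies, and 15 of these have overlapping annotated exons, 4 overlapping CDSs, 2 are tandem and 3 have an ID annotated on the other strand. Of the pairs of heads 83.5% were in no other assembly, against 35.5% of those of embryos and 41.6% of those of ovaries. A pair can be found only where both IDs have isoforms, and the assemblies hold 11280, 6525 and 6690 FlyBase IDs (heads, embryos, ovaries). Of 2831 annotated protein-coding neighbours with isoforms of both IDs in heads and in embryos, 107 overlapped in heads, 26 in embryos and 12 in both. Of 3201 such neighbours in heads and in ovaries, 131 overlapped in heads, 13 in ovaries and 8 in both. Besides *Galphaq*, the pairs in all 3 that shared an intron in each and had most isoforms included *Usp12-46*, a deubiquitinase gene, with *CG7029* (1 and 62 isoforms in heads, 2 and 22 in embryos, 1 and 9 in ovaries), with 2, 1 and 1 shared introns. *orb2*, for a CPEB protein of memory, shared 6, 4 and 6 introns with *CG43783*, and the overlap was 1510 nt in each assembly. *Plp*, for a pericentrin-like centrosomal protein, shared 1 intron with *sstn* in each, and *Kdm4B*, for a histone demethylase, shared 1, 1 and 3 with *seq*. At these loci the overlap is annotated and was found under both IDs.

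Of the pairs in all 3 assemblies that shared no intron, *Lpin*, for the phosphatidate phosphatase lipin, and *kermit* had most isoforms (89 and 3 in heads, 12 and 1 in embryos, 10 and 1 in ovaries) and overlapped over 600, 830 and 600 nt. *ntc*, which encodes an F-box protein of sperm differentiation, overlapped *CG32264* over 639 nt in each assembly, with 1 *ntc* isoform in each. *Hus1-like*, a checkpoint clamp gene, overlapped *ctrip*, a ubiquitin ligase gene, over 114, 403 and 114 nt, and *CG33229* overlapped *lncRNA:CR42862* over 1757, 2084 and 964 nt. *Arms* and *Panx*, a piRNA pathway gene annotated on the other strand, overlapped over 1187, 5 and 5 nt.

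The longest overlap without a shared intron in heads was that of *mei-W68*, for the nuclease that starts meiotic recombination, and the polarity kinase gene *par-1* (4292 nt on 2R). In heads they had 4 and 150 isoforms, in embryos 0 and 60, and in ovaries, where the overlap was 805 nt, 1 and 29. *CG17600* and the kinase gene *S6kII* overlapped over 3776 nt in heads and in embryos, *CG14043* and the mitochondrial ribosomal protein gene *mRpL28* over 3582 nt, the hemocyte receptor gene *NimC1* and the hemocyte gene *He* over 3578 nt, and *Pfrx* and *CG14200* over 3487 nt in heads. In embryos *Tsp42Ea* and *CG30159* overlapped over 5235 nt, *eIF4EHP*, for a translational repressor, and *Syx1A*, for a syntaxin of synaptic vesicle fusion, over 4340 nt, *CG45078* and *fau* over 3477 nt, and *CG14005* and *CG9171* over 2854 nt. In ovaries *Nmdmc*, for a mitochondrial folate enzyme, and *Rel*, for the NF-kappaB factor Relish, overlapped over 3350 nt. In heads the same pair overlapped over 3294 nt and shared 1 intron.

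Long spacers belonged to tandem pairs of heads. They were 5855 nt between *CG33307* and *mRpS23*, 4877 nt between *CG3009* and *CG15473*, 4837 nt between *Abi*, for an actin regulator, and *Kif19A*, a kinesin gene, 4458 nt between *PGRP-LA* and *PGRP-LC*, for peptidoglycan recognition proteins, and 4173 nt between *CG15535* and *CG42740*. Each rested on 1 to 3 bridging isoforms. None of these pairs overlapped in embryos or ovaries. In ovaries no pair among them had isoforms of both IDs, so none could overlap. In embryos only *Abi* and *Kif19A* (2 and 1 isoforms) and *PGRP-LA* and *PGRP-LC* (2 and 5) had isoforms of both.

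Other pairs with 6 or more shared introns repeat these types. In heads *Etl1* and *CG13124* (196 nt apart on 2L) and *CG33287* and *CG12983* (3 nt apart on 3L) shared 16 introns each and *CG13794* and *CG13793* shared 13, all of them tandem with 3 bridging isoforms. *Etl1* had 3 isoforms in heads and *CG13124* 117, and in embryos, with 1 and 8 isoforms, the genes overlapped over 894 nt and shared none. In embryos *Kdm4B* and *CG17724* shared 8 introns, *Trl*, for the GAGA factor, and *CG42507* 7, and the nuclear receptor gene *Hr3* and *CG12912* 7. All of these are annotated as dicistronic, and *CG42507* and *CG12912* had no isoform in heads. In ovaries *CG6191* and *CG45088* shared 6.

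Pairs with an ID annotated on the other strand made up 22.8% (20.1 to 25.7) of the pairs of heads, 17.7% (12.0 to 25.4) of those of embryos and 44.9% (37.8 to 52.3) of those of ovaries. In all of them the isoforms on the strand opposite to their ID had a single exon, so none of these pairs could share an intron. Their overlap was short, with medians of 116.5, 86.5 and 63.5 nt (heads, embryos, ovaries). The genes are annotated tail to tail in 157 of the 196 pairs of heads, 20 of 22 of embryos and 76 of 80 of ovaries. The longest overlaps of this class in ovaries, far above its median, were those of *Yp1*, a yolk protein gene, with *asRNA:CR45601* (1610 nt), *spt4* with *Mvk* (1416 nt) and *Vps24* with *asRNA:CR46140* (1035 nt), and the pairs of *Yp1* and *Vps24* are the 2 of the 80 with an antisense RNA and are nested, not tail to tail. Among all isoforms with an annotated ID, 51.7% (49.3 to 54.1) of 1714 single-exon isoforms of heads stood on the strand opposite to their ID, as did 32.5% of 388 in embryos and 40.8% of 596 in ovaries. No multi-exon isoform did, of 66668, 18083 and 12125. Whether the strand given to the unspliced isoforms is right was not tested.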

How the data were processed

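Per the labels and the study's methods, the authors aligned reads with minimap2 2.17 to dm6, pooled them by tissue and assembled isoforms in FLAIR 1.1, with corrected splice sites, 5′ ends from a promoter database and at least 3 full-length reads per isoform. IDs came from annotation release 96. For the study's 3′-end filter, the sources used here do not say if it was applied to these files. The deposited values were other than counts: genomic positions of transcripts and exons. Exon unions of all isoforms of an ID were intersected per strand in Python 3.11.15, with Wilson intervals from statsmodels 0.14.6 and plots from matplotlib 3.10.9. Positions were compared with Ensembl release 115 and, for sequence, with the RefSeq copy of dm6, which contains all positions. The pair search was tested on simulated data. Members and lists were chosen with earlier results of these data known, and the 50-nt minimum for read-through after 1-nt cases were seen. Named pairs were, per assembly, the 5 with most shared introns and the 5 with the longest overlap without one, the 10 with most bridging isoforms, the 5 with most isoforms in each class of those in all assemblies, the 5 shortest and 5 longest spacers and a list of known loci. Multi-exon isoforms, isoforms named after annotated transcripts, an overlap of 100 nt, splice sites within 10 nt and 90% or 1 nt of both CDSs were tried as alternatives.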

Additional observations from a re-analysis of the deposited data

How the results depend on the processing

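The values above rest on 1 pooled assembly per tissue, so no library could be left out, and precision is limited by the unknown depth. No paired analysis was possible because the libraries are pooled and no test was run. Of 42 alternative values, 19 stayed within 1.5 times the count or within the interval of the share, and 23 moved. With isoforms named after an annotated transcript alone, pairs numbered 182, 45 and 56 (heads, embryos, ovaries), the share with an identical intron was 16.5%, 33.3% and 41.1%, the share with disjoint annotated exons was 50.8%, 22.2% and 7.14%, and bridged pairs were 59, 11 and 13. The order of the tissues in the share with an identical intron thus depends on this choice. With multi-exon isoforms alone, ovaries kept 91 pairs, the share with an identical intron was 59.9% in heads, 53.6% in embryos and 50.6% in ovaries, and the share with disjoint annotated exons was 72.7%, 41.2% and 27.8%. With an overlap of 100 nt or more, the share with an identical intron was 48.7% in heads and 37.4% in ovaries, and the share with disjoint annotated exons was 46.7% in ovaries. With 1 nt of both CDSs, bridged pairs in ovaries were 42. The causes were not tested.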
